A study of Homo sapiens with 9 samples.

Results

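The 3 RNA-seq libraries labelled sgL1 with the numbers 1 to 3 were compared with the 3 libraries labelled sgCtrl, out of 9 libraries in the series. All came from total RNA of the established cell line MDA-MB-231, a model of breast cancer without hormone receptors or HER2 amplification, which per the series title spent 6 h under hypoxia, a lowered oxygen supply. The genotype labels give 6 libraries as sgL1 and 3 as sgCtrl. The design text calls UFL1 or UFM1 knocked out while the title calls the UFMylation gene knocked down, and sgL1 is taken here to mean cells given a UFL1-directed guide, sgCtrl cells given a control one. No label states that reading, gives a guide sequence, names a clone or explains the numbers 1 to 6. Libraries 1-3 were selected on their UFL1 transcript level: it stood at 2 levels in the 6 sgL1 libraries, and was lower in 1-3 than in 4-6. That choice was made on these data, so the p-values below take no account of it. The labels also do not say that libraries of a group came from separate cultures, so the spread between them may be technical.

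UFMylation attaches the small protein UFM1 to other proteins. UFM1 is passed to the carrier enzyme UFC1 and joined to its target by the ligase UFL1, which the adaptor DDRGK1 holds at the membrane of the endoplasmic reticulum (ER). A well-known target is the ribosome docked at the ER, and the pathway is best known for its part in ER protein quality control. Hypoxia stabilises the hypoxia-inducible factors (HIF), which switch on genes of glucose uptake, glycolysis and vessel growth. Both groups were hypoxic, so the comparison is between guides and not between oxygen levels.

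Each of the 6 libraries held 15420073 to 16122426 counts on named genes. Libraries of one group typically varied by 5.18% (common biological coefficient of variation, from edgeR). A first principal component with 29.9% of the variance set sgCtrl (15.15 to 17.79) apart from sgL1 1-3 (-9.90 to -7.21) and sgL1 4-6 (-7.84 to -6.69). On the second, with 15.9%, sgL1 1-3 lay at 3.30 to 13.07 and sgL1 4-6 at -15.10 to -4.14. Of 10 markers of the line, VIM, CD44, AXL, EGFR and MSN were abundant, and SPARC stayed under 1 CPM (counts scaled to library size), which goes against the list. Of 9 tested, 5 (CAV1, AXL, EGFR, VIM and ANXA1) were called lower in sgL1 1-3 and 1, CD44, higher, and the list summed to 6727 to 6786 CPM in sgCtrl and 6345 to 6471 CPM in sgL1 1-3. Over all genes tested, 8.06% were called higher in sgL1 1-3 and 7.10% lower, by the test described below. Markers of other cells rose in part. Called higher were 3 of 9 tested luminal markers (XBP1, FOXA1 and KRT19). So were 1 of 2 tested fibroblast markers (PDGFRB) and 2 of 3 tested endothelial markers (PECAM1 and ESAM). Their summed levels ranged from 192.1 to 199.8 CPM in sgCtrl and from 237.8 to 243.3 CPM in sgL1 1-3 for the luminal list, from 11.5 to 14.6 and from 17.1 to 20.6 CPM for the fibroblast list, and from 119.0 to 126.7 and from 143.1 to 147.9 CPM for the endothelial list. The defining fibroblast genes COL1A2 and LUM were at 0 in all 9 libraries, as were the leukocyte and blood genes CD3E, MS4A1 and HBB, and the leukocyte list summed to 1.66 to 2.57 CPM in sgCtrl and 1.61 to 1.75 CPM in sgL1 1-3. Of the 8 endothelial markers found, 5 stayed under 1 CPM in all 9 libraries. KDR, lower on average in sgL1 1-3, was not called, and ESAM, at 110.6 CPM in sgCtrl, made up most of that sum. The luminal gene ESR1 stayed under 1 CPM in all 9 libraries, and KRT19 lost its call with the GC-content adjustment described below. The part of these markers in the results was not tested.

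UFL1 (ENSG00000014123, protein-coding; chromosome 6, 96521595 to 96555276, plus strand, GRCh38) measured 27.4, 25.3 and 25.3 CPM in sgCtrl 1, 2 and 3 and 15.2, 12.9 and 12.9 CPM in sgL1 1, 2 and 3. Behind these stood 429, 404 and 396 counts in sgCtrl and 234, 208 and 204 in sgL1 1-3. The mean of sgL1 1-3, 13.6 ± 1.31 CPM (SD, n = 3), was 52.5% of the sgCtrl mean of 26.0 ± 1.17 CPM (SD, n = 3), and no library of one group reached the other. In sgL1 4-6 UFL1 measured 22.8, 20 and 21.2 CPM, 82.1% of sgCtrl. These levels chose the libraries and are given without a test. A guide that stops a protein need not lower its transcript, so they do not measure the loss of UFL1 protein.

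Of the 8 other UFMylation genes 1 was called, no more than the 15.2% called among all genes tested. This was DDRGK1, the ER membrane anchor of UFL1, which rose. It measured 40.4, 33.9 and 45.0 CPM in sgCtrl and 50.6, 57.3 and 52.2 CPM in sgL1 1-3, up by 0.42 on the log2 scale (SE 0.08; edgeR adjusted p = 0.00182). All 3 sgL1 libraries were above all 3 sgCtrl libraries, while 2 of the sgL1 4-6 values of 42.3, 47.4 and 42.2 CPM lay within the sgCtrl range. UFM1 itself measured 48.8, 51.5 and 48.5 CPM in sgCtrl and 52.1, 58.1 and 51.5 CPM in sgL1 1-3, which did not pass (log2 fold change 0.12; edgeR adjusted p = 0.237). With the GC-content adjustment described below it did pass (0.22; edgeR adjusted p = 0.0160), and DDRGK1 stayed called (0.34; edgeR adjusted p = 0.00117). UFC1, CDK5RAP3, ODR4 and the UFM1 proteases UFSP1 and UFSP2 did not pass the test.

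Across the transcriptome 1194 of 14812 genes tested rose in sgL1 1-3 (8.06%) and 1052 fell (7.10%), together 15.2%. A gene was called where the adjusted p of edgeR's quasi-likelihood test was under 0.05. UFL1 is one of the 14812 genes but is left out of the counts called. In bulk RNA, fewer cells with a transcript and less of it per cell cannot be told apart. Most changes were small. The median size of a called change was 0.27 on the log2 scale, 227 genes rose and 83 fell at least 1.5-fold, and 94 rose and 23 fell at least 2-fold. Among the called genes 2167 had no overlap between the groups' libraries, a state shared by 30.7% of all genes tested. Protein-coding genes made up 2140 of the calls. Without sgCtrl 2 the genes that fell numbered 667.

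Transcript GC content moved with these calls. The median GC content was 47.8% over all genes tested, 55.0% among genes that rose and 41.7% among genes that fell. Relative to sgCtrl, the lowest of 10 equal groups of genes by GC content had a median log2 ratio of -0.12 in sgL1 2 and in sgL1 3, and the highest group 0.14 in both. In sgL1 1 these medians were -0.04 and 0.04. Among the other libraries the trend was flat or ran the opposite way, most in sgL1 4, with 0.09 in the lowest and -0.07 in the highest group. With a shift for each library and GC bin taken out (GC offsets, an adjustment chosen after seeing the data), 1087 genes rose and 903 fell. Of the original calls 863 rises and 666 falls were kept in the same direction. Large changes were kept more completely: 201 of 227 rises and 72 of 83 falls of at least 1.5-fold were kept, against 244 of 462 rises and 289 of 601 falls under 1.2-fold.

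**Figure D1:**
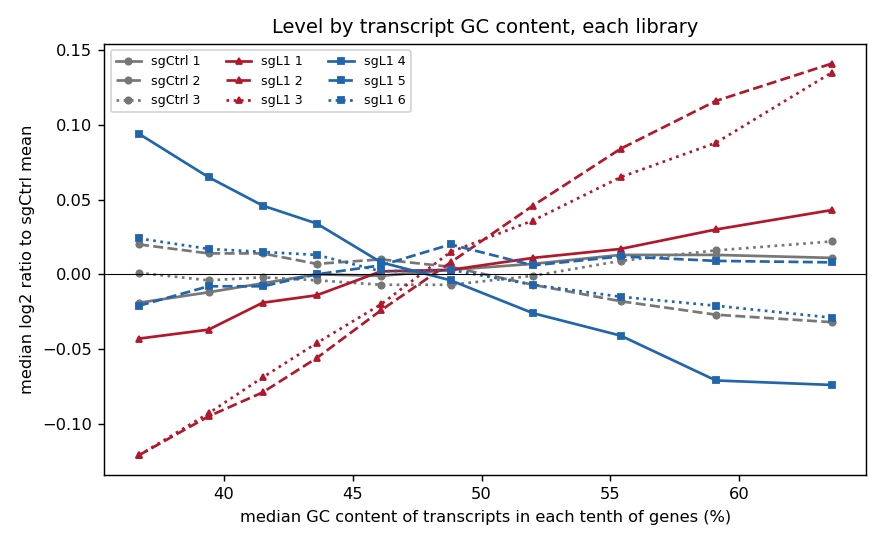
Median log2 ratio to the sgCtrl mean (vertical axis) in 10 equal groups of genes ordered by transcript GC content (horizontal axis, median GC of each group in percent), 1 line per library. The lines of sgL1 2 and sgL1 3 climb from -0.121 to 0.141 and 0.135, sgL1 1 follows with a smaller slope, and sgL1 4 runs the opposite way.

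The 3 largest rises were in CSF3, IL1B and C3. CSF3 (chromosome 17, 40015361 to 40017813), whose product G-CSF stimulates granulocytes, measured 5.68, 5.64 and 6.01 CPM in sgCtrl and 63.4, 73.4 and 70.2 CPM in sgL1 1-3, an 11.9-fold rise (log2 fold change 3.58, SE 0.09; edgeR adjusted p = 8.49e-23). IL1B (chromosome 2, 112829751 to 112836903), a proinflammatory cytokine, went from 2.42, 2.32 and 2.17 CPM to 24.3, 21.3 and 24.7 CPM, a 10.1-fold rise (edgeR adjusted p = 5.50e-18). Complement C3 (chromosome 19, 6677704 to 6730562), the central component of that cascade, went from 39.6, 38.4 and 41.8 CPM to 278.2, 277.3 and 288.0 CPM, a 7.03-fold rise (edgeR adjusted p = 1.27e-27). In each of these the 2 groups lay far apart. The other genes among the 15 largest rises, with their log2 fold changes, were C15orf48 (2.53), the prostaglandin-forming enzyme PTGS2 (2.46), DEPP1 (1.97), the lipase inhibitor ANGPTL4 (1.89), the matrix protease MMP3 (1.83), the chemokines CXCL1 (1.76) and CXCL3 (1.74), SPP1 (1.63), which encodes osteopontin, the lectin-like receptor KLRC2 (1.63), the mTORC1 inhibitor DDIT4 (1.58), the corepressor RCOR2 (1.54) and the IL-13 decoy receptor IL13RA2 (1.51). KLRC2 was low, with 0.574, 0.752 and 0.192 CPM in sgCtrl and 0.883 to 2.33 CPM in sgL1 1-3. Its value in sgCtrl 3 was at the counting floor, and its call was lost without sgCtrl 3 or sgL1 1. It passed the expression filter only through sgL1 1-3, where it was higher, so its place in this ranking is uncertain. CXCL1 and CXCL3, and KLRC2 and its neighbours, have near-identical relatives, so the counting could have split reads between them.

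Set beside sgL1 4-6, several of these genes stood at another level although both sets were above sgCtrl. IL1B measured 46.1, 42.1 and 47.4 CPM in sgL1 4-6, above every library of sgL1 1-3. SPP1 measured 33.4, 31.5 and 28.9 CPM in sgL1 1-3 and 76.9, 75.1 and 74.6 CPM in sgL1 4-6, with 9.59 to 10.7 CPM in sgCtrl. IL13RA2 measured 5.57, 4.97 and 5.3 CPM in sgL1 1-3 and 9.3, 9.74 and 8.3 CPM in sgL1 4-6. These 3 genes were thus highest in sgL1 4-6, whereas UFL1 transcript was lowest in sgL1 1-3. MMP3 and CXCL1 were also highest in sgL1 4-6 without overlap, and ANGPTL4 and DDIT4 in sgL1 1-3. RCOR2 was highest in sgL1 1-3, with 2.46, 3.23 and 3.97 CPM in sgL1 1-3, 2.21, 2.18 and 1.47 CPM in sgL1 4-6 and 0.893 to 1.32 CPM in sgCtrl. Of the 227 rises of at least 1.5-fold, sgL1 1-3 lay farther from sgCtrl than sgL1 4-6 with no overlap in 83, nearer with no overlap in 19, and the 2 sets overlapped in 125. For the 83 falls of that size these numbers were 16, 8 and 59. All were counted without GC offsets. Over all genes tested 24.5% had no overlap between the 2 sets, and genes picked for a large change in sgL1 1-3 are more likely to lie farther out there. The differences between sgL1 1-3 and 4-6 were not tested, since the libraries were divided on them, and both sets share the same controls.

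**Figure D2:**
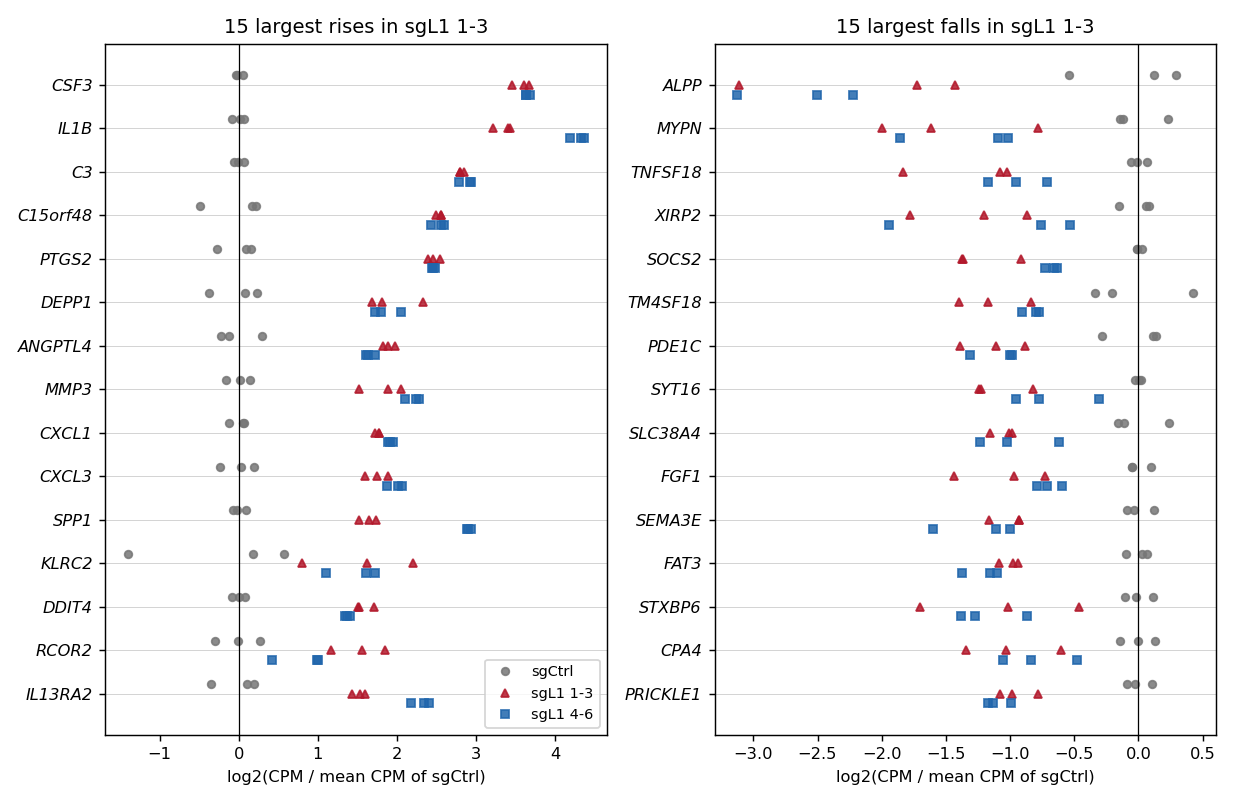
Level of the 15 genes with the largest rises (left) and falls (right) in each of the 9 libraries, as log2 of CPM over the sgCtrl mean (horizontal axis), 1 point per library. sgL1 1-3 (triangles) and sgL1 4-6 (squares) lie on the same side of sgCtrl (circles) for each gene shown. IL1B, SPP1, IL13RA2, CXCL1, MMP3 and FAT3 lie farther out in sgL1 4-6 without overlap, and ANGPTL4, DDIT4, RCOR2 and SOCS2 in sgL1 1-3.

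The largest falls were smaller and mostly in genes of low level. Highest in level among the 15 was FAT3 (chromosome 11, 92352096 to 92896470), which encodes a large cadherin: it went from 58.4, 60.1 and 53.8 CPM to 29.1, 27.0 and 30.0 CPM, a change of -1.0 on the log2 scale (SE 0.07; edgeR adjusted p = 3.45e-12). PRICKLE1, a planar cell polarity gene, went from 13.5, 12.9 and 14.8 CPM to 7.97, 6.52 and 6.94 CPM (-0.94; edgeR adjusted p = 1.59e-06). SOCS2, an inhibitor of cytokine receptor signalling (chromosome 12, 93569814 to 93583487), went from 13.8, 14.2 and 13.8 CPM to 7.38, 5.4 and 5.36 CPM (-1.20; edgeR adjusted p = 6.30e-08). It stood at 8.41, 8.98 and 8.81 CPM in sgL1 4-6, so its 3 sets of libraries did not overlap. The other 12 were ALPP (-1.90), MYPN (-1.36), the TNF-family ligand TNFSF18 (-1.27), XIRP2 (-1.24), TM4SF18 (-1.12), the phosphodiesterase PDE1C (-1.11), SYT16 (-1.08), the amino acid transporter SLC38A4 (-1.05), the growth factor FGF1 (-1.02), the guidance ligand SEMA3E (-1.01), STXBP6 (-0.98) and CPA4 (-0.96). MYPN and XIRP2 encode proteins of the sarcomere and of actin-rich junctions. ALPP, placental alkaline phosphatase, has near-identical relatives, and its lowest library, at 0.194 CPM, was at the counting floor. It measured 1.15 to 2.05 CPM in sgCtrl and 0.194 to 0.621 CPM in sgL1 1-3. It passed the expression filter only through sgCtrl, where it was higher, so its place in this ranking is uncertain. TM4SF18 lost its call without sgCtrl 2.

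Genes switched on by the inflammatory transcription factor NF-kB rose together. Of 27 listed genes 26 were found and 17 passed the expression filter, of which 16 rose and 1, the apoptosis inhibitor BIRC3, fell; the median was 1.36, where the median over all genes tested was 0.00. With 1 library left out in turn 13 to 15 rose. The neutrophil attractant CXCL8 measured 72.7, 72.1 and 69.8 CPM in sgCtrl and 186.9, 177.7 and 185.8 CPM in sgL1 1-3 (1.36; edgeR adjusted p = 5.58e-20). CXCL1 measured 60.2, 52.6 and 59.5 CPM and 196.9, 190.1 and 195.9 CPM (1.76; edgeR adjusted p = 1.57e-21). Both were higher still in sgL1 4-6, at 207.2 to 218.4 CPM for CXCL8 and 212.0 to 221.1 CPM for CXCL1. Genes of the pathway's own control moved less: of 15 tested subunits and regulators 5 rose and 0 fell. The rises were led by the inhibitor TNIP1 (0.56), by NFKBIZ (0.75) and by the main inhibitor NFKBIA (0.30). The 5 became 3 without sgCtrl 2, without sgL1 2 or with GC offsets, and the subunit NFKB2 (0.17; edgeR adjusted p = 0.0139) was among those lost. In the IL-6 family and colony-stimulating factors 8 of 13 rose, among them IL11 (1.17) and LIF (0.43), and the receptor LIFR fell. IL11 measured 71.2, 68.3 and 77.1 CPM in sgCtrl, 157.5, 167.7 and 162.0 CPM in sgL1 1-3 and 127.6, 136.9 and 137.1 CPM in sgL1 4-6, the order opposite to that of CXCL8. Interferon response genes were near the background: 2 of 21 rose, IFITM3 (0.20) and ISG15 (0.22), with 0 higher without sgCtrl 2 and 1 without sgCtrl 3 or sgL1 2.

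The promoter of CXCL1 is shown because this gene rose strongly and its start holds NF-kB-type letters. RefSeq gives it at chr4:73869143-73869442 (GRCh38.p14, plus strand, 250 bases before to 50 after the gene's start). Capitals mark 2 overlapping matches, on opposite strands, to an NF-kB-type pattern: GGG, any 3 bases, then TTCC.
CXCL1: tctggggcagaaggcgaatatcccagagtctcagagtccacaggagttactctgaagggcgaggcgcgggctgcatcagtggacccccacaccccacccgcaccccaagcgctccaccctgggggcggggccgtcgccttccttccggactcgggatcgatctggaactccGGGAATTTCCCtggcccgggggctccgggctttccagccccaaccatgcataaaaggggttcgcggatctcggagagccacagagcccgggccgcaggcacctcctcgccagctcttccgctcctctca
Such letters, on either strand, occurred in 7.8% of the 7189 RefSeq promoters matched to the 12235 protein-coding genes tested, and in 4 of 10 promoters matched to called members of the NF-kB list. With so many genes unmatched, shares are not compared between groups of genes.

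HIF targets were higher in sgL1 1-3 although the control cells were hypoxic too. Of 45 listed and tested HIF targets 41 rose and 0 fell, with a median of 0.46; the count was 37 to 41 with 1 library left out and 39 with GC offsets. BHLHE40, a transcriptional repressor of the circadian and hypoxic response, measured 87.7, 89.7 and 95.7 CPM in sgCtrl and 233.5, 225.8 and 235.7 CPM in sgL1 1-3 (1.35, SE 0.04; edgeR adjusted p = 4.22e-20). PFKFB3, an activator of glycolysis, rose by 1.03 on the log2 scale, the angiogenic factor VEGFA by 1.01 and SLC2A3, which imports glucose, by 0.94. Each of these 4 was also above sgCtrl in sgL1 4-6, and in each the sgL1 1-3 libraries lay above all sgL1 4-6 libraries. That order held without overlap for 18 of the 45 HIF targets, and the opposite order for 3, against 12.8% and 11.7% of all genes tested. This count, and those of the same kind below, used levels without GC offsets, and the part of GC content in them was not tested. HILPDA, which promotes lipid droplets under hypoxia (chromosome 7, 128455849 to 128458418), showed it clearly: 14.8, 11.9 and 12.5 CPM in sgCtrl, 23.8, 23.9 and 23.8 CPM in sgL1 1-3 and 15.4, 17.7 and 17.8 CPM in sgL1 4-6 (0.87 for sgL1 1-3; edgeR adjusted p = 9.35e-08). The oxygen sensors EGLN3 (0.96) and EGLN1 (0.38), themselves HIF targets, rose, and CITED2 (-0.38), a competitor of HIF, fell. HIF1A, ARNT and VHL did not pass. EPAS1, which encodes HIF-2 alpha, passed narrowly (0.18; edgeR adjusted p = 0.0491) and lost its call with any 1 of the 6 libraries left out.

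Glycolysis genes rose by smaller amounts. Of 19 tested 14 rose and 0 fell, with a median of 0.21, and 11 rose with GC offsets. The first enzyme of the pathway, HK2, measured 364.8, 376.1 and 403.5 CPM in sgCtrl and 539.1, 555.4 and 549.9 CPM in sgL1 1-3 (0.52; edgeR adjusted p = 6.94e-12). The lactate exporter SLC16A3 rose by 0.48, HK1 by 0.34 and PGK1 by 0.30. Without GC offsets, sgL1 1-3 lay above sgL1 4-6 with no overlap in 11 of the 19 genes, and below in 1. Over all genes tested these shares were 12.8% and 11.7%. Nuclear-encoded oxidative phosphorylation was near the background, with 3 of 35 higher and 0 lower, and 0 higher without sgCtrl 2 and 1 without sgL1 2.

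The RefSeq promoter of ANGPTL4, the HIF target with the largest rise (15, 10.5 and 11.3 CPM in sgCtrl; 45.5, 43.2 and 48.0 CPM in sgL1 1-3), lies at chr19:8363905-8364204 (GRCh38.p14, plus strand). Capitals mark 1 match to the HIF-type letters ACGTG or GCGTG, here on the opposite strand. The annotation used for gene positions starts the gene further upstream, at 8363289.
ANGPTL4: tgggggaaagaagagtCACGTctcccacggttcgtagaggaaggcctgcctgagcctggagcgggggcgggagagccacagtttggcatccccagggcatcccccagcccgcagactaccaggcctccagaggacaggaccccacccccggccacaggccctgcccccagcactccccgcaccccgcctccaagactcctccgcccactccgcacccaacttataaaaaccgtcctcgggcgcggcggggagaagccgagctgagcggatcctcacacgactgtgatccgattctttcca
These short letters are common: 64.6% of all promoters matched held them.

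Genes of ER protein folding rose slightly and in number. Of 23 tested ER chaperones and their regulators 17 rose and 0 fell, with a median of 0.28, and 16 rose with GC offsets. The disulfide isomerase P4HB measured 504.1, 506.4 and 512.9 CPM in sgCtrl and 648.0, 652.9 and 673.8 CPM in sgL1 1-3 (0.37; edgeR adjusted p = 6.43e-10). HSPA5, the ER chaperone BiP, measured 792.1, 813.2 and 776.6 CPM and 978.3, 981.2 and 1012 CPM (0.32; edgeR adjusted p = 9.25e-09). XBP1, a transcription factor of the unfolded protein response, rose by 0.50 and PDIA4 by 0.34. In all 4 the sgL1 1-3 libraries were above the sgL1 4-6 libraries, which for HSPA5 measured 916.2 to 920.2 CPM. Genes named for a small adjusted p in sgL1 1-3 are more likely to lie farther out there. Of all 23, and without GC offsets, sgL1 1-3 lay above sgL1 4-6 with no overlap in 9 and below in 1. Over all genes tested these shares were 12.8% and 11.7%. Of 31 genes of the translocon and of glycosylation, the entry gate of the ER, 10 rose and 0 fell, among them SRPRA (0.19), STT3A (0.17) and SEC61A1 (0.17); this became 6 without sgCtrl 2 and 4 without sgL1 2. Of 22 genes of ER-associated degradation 7 rose and 0 fell, among them AUP1 (0.25) and OS9 (0.28), and 4 rose without sgCtrl 2 or sgCtrl 3. Of 27 tested ATF4 targets, the effectors of the integrated stress response, 8 rose and 1, the cystine transporter SLC7A11 (-0.35), fell. The shares over all genes tested were 8.06% and 7.10%. Among the rises were CEBPB (0.68), ATF4 itself (0.31) and DDIT4, which is also a HIF target. The median of that list was 0.05.

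Heat shock genes, most of them cytosolic, moved the other way. The mitochondrial HSPD1 and HSPE1 are also on the list and were not called. Of 13 tested 6 fell and 0 rose, with a median of -0.15, and 6 to 7 fell with 1 library left out. HSP90AA1, the inducible HSP90, measured 3682, 3727 and 3784 CPM in sgCtrl, 3317, 3274 and 3207 CPM in sgL1 1-3 and 3955, 3740 and 3766 CPM in sgL1 4-6 (-0.19 for sgL1 1-3, SE 0.03; edgeR adjusted p = 6.50e-06). HSPA8 fell by 0.17, HSPH1 by 0.17 and DNAJB1 by 0.20 on the log2 scale. HSP90AA1 was lower than sgCtrl in sgL1 1-3 and not in sgL1 4-6, while DNAJB1 was as low in sgL1 4-6 (155.9 to 163.0 CPM) as in sgL1 1-3 (161.3 to 171.0 CPM). For the whole list the median in sgL1 4-6 was -0.02. Without GC offsets, 8 of the 13 genes were lower in sgL1 1-3 than in sgL1 4-6 with no overlap, as were 11.7% of all genes tested.

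Mitotic genes fell by small amounts. In the G2/M list 14 of 27 members fell and 0 rose, with a median of -0.14; 12 to 15 fell with 1 library left out, and 14 with GC offsets. ECT2, needed for cytokinesis, measured 261.0, 279.6 and 271.7 CPM in sgCtrl and 230.3, 209.7 and 206.4 CPM in sgL1 1-3 (-0.33; edgeR adjusted p = 9.70e-07). The topoisomerase TOP2A fell by 0.21, the kinesin KIF23 by 0.25 and CENPE by 0.29. CDKN1A, the cell cycle inhibitor p21, rose from 74.0, 67.8 and 78.7 CPM to 149.0, 156.4 and 149.7 CPM (1.04; edgeR adjusted p = 7.83e-16) and led the 6 of 21 p53 targets that rose. CCNG2, a cyclin linked to cell cycle exit, rose by 1.12. G1/S genes went both ways, with 6 higher and 3 lower of 27, and these calls were fragile: the 6 became 1 without sgCtrl 2, 2 without sgL1 3 and 3 without sgCtrl 1, sgCtrl 3 or sgL1 2, and the 3 that fell became 0 without sgCtrl 1 or sgCtrl 3.

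Targets of YAP and TAZ, coactivators of the TEAD factors that respond to cell shape and tension, fell. Of 24 tested 13 fell and 1, WWC1, rose, with a median of -0.17; 11 to 13 fell with 1 library left out and 15 with GC offsets. CTGF, a matricellular growth factor (chromosome 6, 131948176 to 131951373), measured 617.4, 647.0 and 604.5 CPM in sgCtrl and 437.6, 419.6 and 430.3 CPM in sgL1 1-3 (-0.54, SE 0.03; edgeR adjusted p = 7.39e-13). ANKRD1, a nuclear ankyrin-repeat protein, went from 1221, 1198 and 1185 CPM to 881.7, 820.6 and 857.4 CPM (-0.49; edgeR adjusted p = 8.62e-13). TGFB2 (chromosome 1, 218346235 to 218444619) went from 56.6, 53.4 and 56.3 CPM to 39.0, 31.2 and 32.2 CPM (-0.70). Groups did not overlap in any of these 3 genes. Among the actin genes controlled by the factor SRF, 5 of 18 fell, including VCL (-0.44), ACTG1 (-0.28) and CALD1 (-0.37), and TAGLN2 rose (0.23); with GC offsets 9 fell. CALD1 was lower in sgL1 1-3 (36.8, 37.7 and 36.9 CPM) than in sgCtrl (47.8, 48.1 and 47.9 CPM) and than in sgL1 4-6 (45.0, 41 and 46 CPM).

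TGFB2 is shown as the called YAP/TAZ target with the largest fall. Its RefSeq promoter lies at chr1:218345086-218345385 (GRCh38.p14, plus strand), and capitals mark 1 match to the TEAD-type letters GGAATG, here on the opposite strand. The annotation used for gene positions starts the gene further downstream.
TGFB2: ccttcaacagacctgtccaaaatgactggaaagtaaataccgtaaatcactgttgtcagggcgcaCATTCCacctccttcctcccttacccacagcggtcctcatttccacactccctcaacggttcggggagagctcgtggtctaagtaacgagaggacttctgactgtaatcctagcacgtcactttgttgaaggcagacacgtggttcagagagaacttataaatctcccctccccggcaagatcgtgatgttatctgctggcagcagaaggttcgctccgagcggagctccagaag
Of all promoters matched 10.3% held these letters.

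Other TGF-beta genes rose while TGFB2 fell. Of 22 tested 10 rose and 2, TGFB2 and INHBB, fell, the latter number 1 without sgCtrl 1. The inhibitory SMAD7 measured 11, 10.9 and 12.5 CPM in sgCtrl, 24.4, 26.2 and 24.6 CPM in sgL1 1-3 and 17.5, 21.5 and 18.3 CPM in sgL1 4-6 (1.13 for sgL1 1-3; edgeR adjusted p = 3.82e-10). TGFB1 measured 152.5, 156.6 and 158.1 CPM, 191.3, 200.4 and 211.1 CPM and 161.2, 166.6 and 171.2 CPM in the same order (0.37; edgeR adjusted p = 1.47e-07), and its binding protein LTBP1 rose by 0.37. In both the sgL1 4-6 values lay near sgCtrl. Mesenchymal genes were mixed, with 3 of 13 higher (CDH11, CD44 and PDGFRB) and 5 lower. ZEB1, a repressor of epithelial genes, was among the latter (-0.38; edgeR adjusted p = 1.57e-05), at 77.7, 80.6 and 85.4 CPM in sgCtrl, 65.6, 64.1 and 57.4 CPM in sgL1 1-3 and 80.5, 66.2 and 71.8 CPM in sgL1 4-6.

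In each of 3 lists of matrix-degrading and matrix-building genes more members rose than fell. Of 14 tested metalloproteinases and their inhibitors 7 rose and 1, the inhibitor TIMP3 (-0.30), fell. The collagenase MMP1 measured 241.7, 254.1 and 247.4 CPM in sgCtrl, 589.5, 569.6 and 616.6 CPM in sgL1 1-3 and 883.7, 886.4 and 853.8 CPM in sgL1 4-6 (1.26 for sgL1 1-3; edgeR adjusted p = 3.06e-21). It thus rose less in sgL1 1-3 than the level seen in sgL1 4-6, as SPP1 did. MMP14 rose by 0.62 and the inhibitor TIMP1 by 0.43. Of 23 collagens and collagen enzymes 13 rose and 2, COL8A1 (-0.77) and COL12A1, fell; the lysyl hydroxylase PLOD2 (0.57) and COL5A1 (0.53) were among the rises, and 1 fell without sgCtrl 1, sgCtrl 2, sgL1 2 or sgL1 3. Of 19 matrix glycoproteins 8 rose, among them TNC (0.94), and 2 fell; 5 rose without sgCtrl 3.

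Immediate-early and AP-1 factors, the first genes to respond to growth signals, rose in number. Of 19 tested 12 rose and 2 fell, with a median of 0.27; 8 to 11 rose with 1 library left out, and with GC offsets 11 rose and 4 fell. JUNB measured 62.2, 61.8 and 65.0 CPM in sgCtrl and 101.4, 112.0 and 96.8 CPM in sgL1 1-3 (0.71; edgeR adjusted p = 4.62e-11). FOSL2 measured 384.0, 374.1 and 413.4 CPM and 496.7, 516.1 and 533.4 CPM (0.40; edgeR adjusted p = 6.17e-09), and 414.7, 452.6 and 442.2 CPM in sgL1 4-6. In JUNB, FOSL2, MAFF (0.49) and JUN (0.29), named for their small adjusted p, sgL1 1-3 lay above sgL1 4-6 with no overlap. Without GC offsets that order held for 7 of the 19 genes and the opposite order for 1, against 12.8% and 11.7% of all genes tested.

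Mitochondrially encoded transcripts were lower in some libraries. Their share of all counts was 3.06% in sgL1 3 and 3.38% to 3.67% in the other 8 libraries. Of 13 tested 3 fell and 0 rose: MT-ATP6, a subunit of ATP synthase, measured 2800, 3060 and 2832 CPM in sgCtrl and 2093, 2092 and 1774 CPM in sgL1 1-3 (-0.55; edgeR adjusted p = 0.0188). MT-ND2 (-0.52) and MT-CO3 (-0.36) lost their calls without sgCtrl 2 or sgL1 2, among others, and without sgCtrl 2 the list held 1 fall. Without sgL1 3, 2 members were called higher. Ribosomal protein genes were below the background, with 2 of 42 higher and 0 lower; 0 were higher without sgCtrl 2 or sgCtrl 3, 1 without sgL1 2 and 4 without sgCtrl 1 or sgL1 3.

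**Figure D3:**
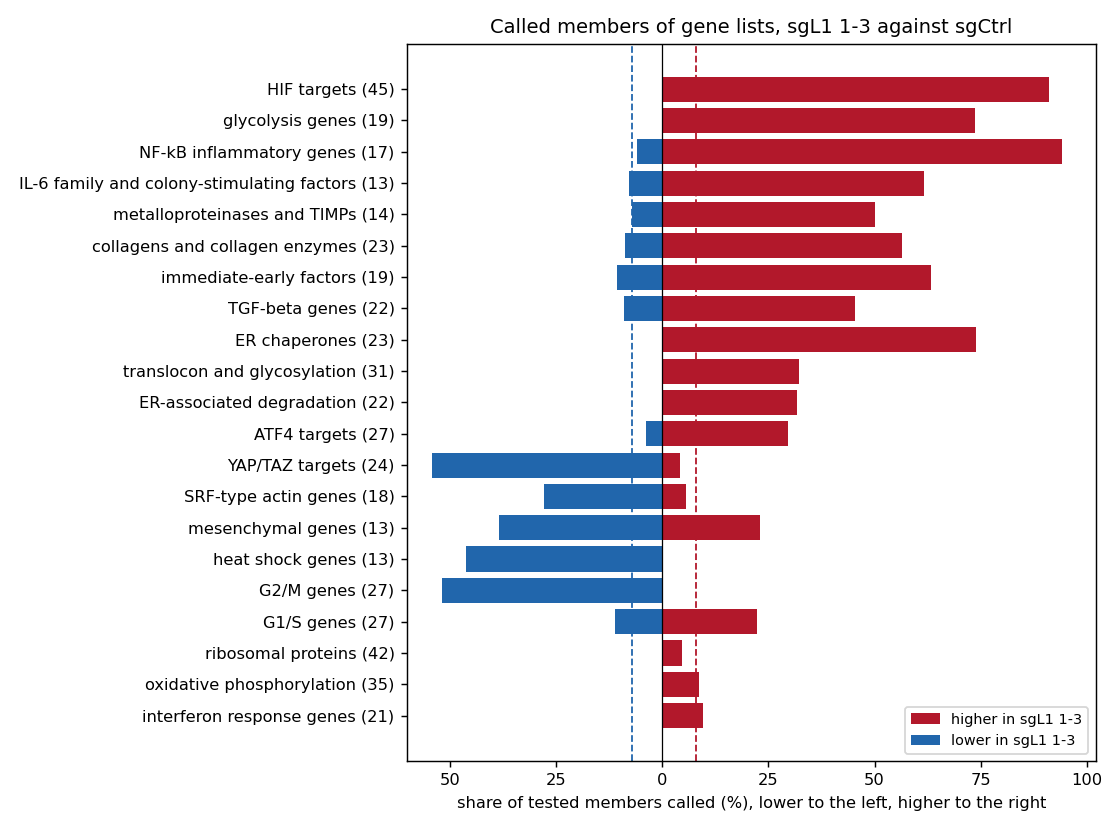
Share of the tested members of 21 gene lists (number tested in brackets) that were called higher (bars to the right) or lower (bars to the left) in sgL1 1-3 than in sgCtrl, in percent. Dashed lines mark the shares of all genes tested, 8.06% and 7.10%: of the lists shown, HIF targets and NF-kB inflammatory genes reach farthest to the right, YAP/TAZ targets and G2/M genes farthest to the left.

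Some changes in sgL1 1-3 were weaker, absent or reversed in sgL1 4-6. A gene was counted here when it was called against sgCtrl, had no overlap with sgCtrl or with sgL1 4-6, and had a mean in sgL1 4-6 within 1.2-fold of sgCtrl. The limit also admits genes that moved in sgL1 4-6 too. ACTG1 changed by -0.28 in sgL1 1-3 and by -0.25 in sgL1 4-6, and HK1 by 0.34 and 0.26. In both genes sgL1 4-6 did not overlap sgCtrl either. By this rule 354 genes were higher (2.39% of those tested) and 375 lower (2.53%), together 4.92%. These changes were small: 12 of the 354 and 5 of the 375 reached 1.5-fold. They also stood at the ends of the GC range, with a median GC content of 58.6% in the higher and 40% in the lower set. With GC offsets the counts were 198 and 177, of which 117 and 104 were in the original sets. Without sgL1 1, the library of the 3 with the weakest GC trend, they were 597 and 681, without sgCtrl 2 they were 234 and 235, and without sgCtrl 3 the lower set held 245. The part of GC content in these sets was not tested beyond this adjustment.

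Of the 12 largest rises and 12 largest falls in these sets, 7 kept their call against sgCtrl with any library left out and with GC offsets. Those fits do not recheck how each gene stood relative to sgL1 4-6, so that part rests on the main levels. HID1, a gene of secretory granule formation (chromosome 17, 74950743 to 74973166), measured 2.62, 3.51 and 3.58 CPM in sgCtrl, 5.51, 5.71 and 6.43 CPM in sgL1 1-3 and 3.22, 3.07 and 3.58 CPM in sgL1 4-6 (0.86 for sgL1 1-3, SE 0.19; edgeR adjusted p = 0.00145, and 0.00513 with GC offsets). FAM53A (chromosome 4, 1617915 to 1684302) measured 1.91, 1.25 and 1.34 CPM, 3.5, 3.35 and 2.59 CPM and 2.03, 1.83 and 1.34 CPM in the same order (1.06, SE 0.27; edgeR adjusted p = 0.00564, and 0.0139 with GC offsets). In both genes sgL1 4-6 overlapped sgCtrl. That sgL1 1-3 stood apart follows from the rule that picked them. GDF15, a stress-induced cytokine that acts on appetite (chromosome 19, 18374731 to 18389176), measured 5.42, 4.64 and 6.91 CPM, 9.0, 8.07 and 11.5 CPM and 6.38, 6.32 and 7.47 CPM (0.75, SE 0.16; edgeR adjusted p = 0.00144). ALDOC, a glycolytic aldolase and HIF target, measured 7.65, 9.47 and 6.65 CPM, 12, 11.8 and 11.1 CPM and 10.1, 8.21 and 7.66 CPM (0.55, SE 0.13; edgeR adjusted p = 0.00392).

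Among the falls, SENP7, a protease that removes SUMO (chromosome 3, 101324205 to 101513241), measured 10.1, 9.47 and 10.2 CPM in sgCtrl, 7.06, 6.77 and 6.62 CPM in sgL1 1-3 and 9.66, 9.03 and 8.81 CPM in sgL1 4-6 (-0.54, SE 0.13; edgeR adjusted p = 0.00427). ERAP2, an ER aminopeptidase that trims peptides for antigen presentation, had a log2 fold change of -0.47 (edgeR adjusted p = 0.00140) and BORA, an activator of the mitotic kinase Aurora A, -0.42 (edgeR adjusted p = 0.00601). ERAP2 was only just separate from sgL1 4-6, with 16.6 CPM in sgL1 1 and 16.7 CPM in sgL1 5. The largest rises by size also held HLA-B (1.05; edgeR adjusted p = 0.0415), at 8.23, 7.95 and 15.3 CPM in sgL1 1-3 and 4.51 to 5.61 CPM in sgCtrl. It lost its call without any 1 of the sgCtrl libraries, and belongs to a family of near-identical genes. The other 16 each lost their call with at least 1 library left out. RYR3, a calcium release channel, is one of these (-0.58), at 3.34 to 3.95 CPM in sgL1 1-3 against 5.2 to 5.88 CPM in sgCtrl and 5.43 to 5.9 CPM in sgL1 4-6.

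**Figure D4:**
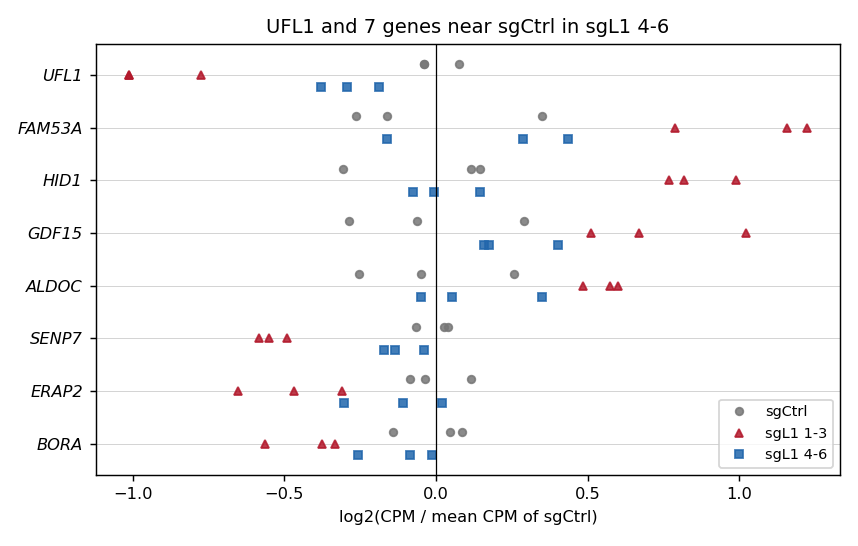
Level of UFL1 and of the 7 genes described above in each of the 9 libraries, as log2 of CPM over the sgCtrl mean (horizontal axis), 1 point per library. The sgL1 1-3 triangles stand apart while the sgL1 4-6 squares lie near or within the range of the sgCtrl circles, UFL1 excepted, where sgL1 4-6 lies between. For the 7 genes this follows from the rule that picked them.

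Chromosome 6, which carries UFL1, was slightly lower as a whole in sgL1 1-3. Over genes with a mean of at least 5 CPM, with UFL1 left out, its median log2 ratio to sgCtrl was -0.044, -0.094 and -0.083 in sgL1 1, 2 and 3, the lowest of 23 chromosomes in each of these libraries. In sgL1 4-6 it was -0.001, -0.027 and -0.016, and another chromosome was lowest in each. From UFL1 to the end of the long arm (183 genes) the medians were -0.085, -0.128 and -0.132 in sgL1 1-3 and 0.026, -0.042 and -0.009 in sgL1 4-6. On the other side of UFL1 (283 genes) they were -0.032, -0.065 and -0.049 in sgL1 1-3 and -0.018, -0.019 and -0.023 in sgL1 4-6. In the 20 Mb just before UFL1 (31 genes) the medians averaged -0.09 in sgL1 1-3 and 0.05 in sgL1 4-6, so lower levels were not confined to the part past UFL1. With GC offsets chromosome 6 was again lowest in each of sgL1 1-3, at -0.039, -0.062 and -0.050, while the lowest of the other chromosomes stood at -0.026, -0.018 and -0.020. In sgL1 4-6 it was then -0.019, -0.032 and -0.026, which ranked it 4, 2 and 2 from the lowest, and the medians past UFL1 averaged -0.077 in sgL1 1-3 and -0.029 in sgL1 4-6. Past UFL1 the gap was then largest in the first 20 Mb (51 genes), where the medians averaged -0.10 in sgL1 1-3 and -0.01 in sgL1 4-6. Before UFL1 they averaged -0.041 and -0.023 with GC offsets, and -0.02 and 0.03 in the nearest 20 Mb (32 genes). These medians are a description with no test; a lower copy number or an altered chromosome was not measured.

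Within 3 Mb of UFL1, 2 of 11 other genes tested passed, close to the 15.2% of all genes. Levels there were nevertheless lower in sgL1 1-3. Over the 8 genes with a mean of at least 5 CPM the median log2 ratios were -0.259, -0.222 and -0.203 in sgL1 1, 2 and 3. In sgL1 4, 5 and 6 they were 0.005, -0.082 and 0.041. With GC offsets they averaged -0.150 in sgL1 1-3 and -0.043 in sgL1 4-6. These medians were not tested. NDUFAF4, an assembly factor of respiratory complex I (chromosome 6, 96889313 to 96897881, minus strand), measured 31.4, 28.0 and 31.4 CPM in sgCtrl, 25.2, 24.1 and 21.1 CPM in sgL1 1-3 and 27.6, 29.8 and 27.5 CPM in sgL1 4-6 (-0.37, SE 0.09; edgeR adjusted p = 0.00269, and 0.0242 with GC offsets). All 3 sgL1 1-3 libraries were below all others. PNISR passed narrowly (-0.17; edgeR adjusted p = 0.0398), lost its call in 5 of 6 fits that each dropped 1 library, and did not pass with GC offsets (edgeR adjusted p = 0.372). USP45 (-0.28), MANEA (-0.26), FBXL4 (-0.24) and FAXC (-0.31) had log2 fold changes of that size without passing, and MMS22L, COQ3, GPR63, POU3F2 and AL513550.1 did not pass either.

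**Figure D5:**
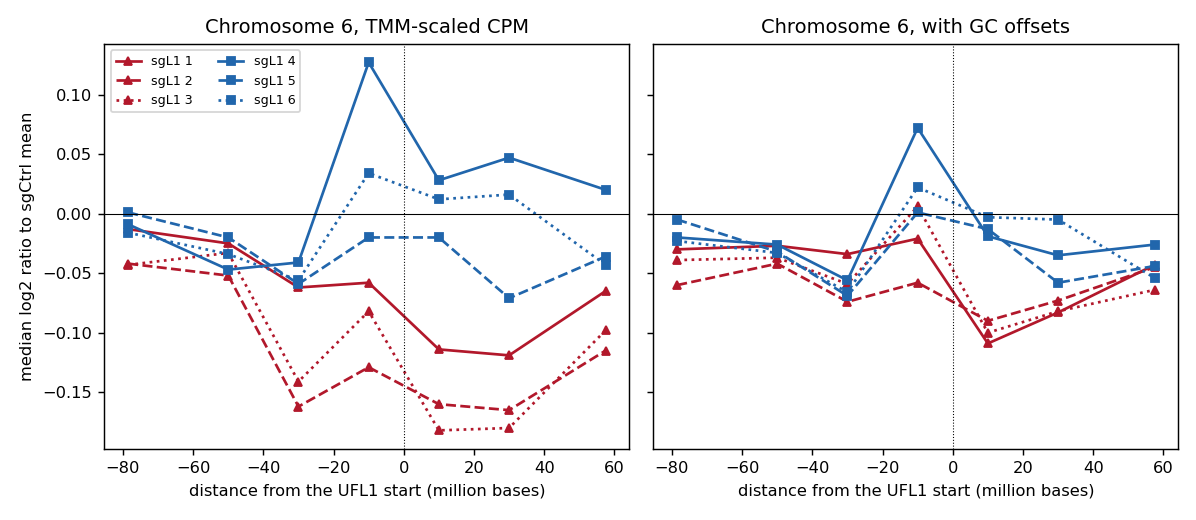
Median log2 ratio to the sgCtrl mean (vertical axis) of chromosome 6 genes in 7 bins by distance from the start of UFL1 in Mb (horizontal axis, dotted line at UFL1, which is left out), 1 line per sgL1 library, from TMM-scaled CPM (left) and with GC offsets (right). In the left panel sgL1 1-3 lie below sgL1 4-6 past UFL1, most in the first 2 bins, and also in the 2 bins just before it. In the right panel the gap is smaller, and the sets overlap in the farthest bin and in the 2 bins just before UFL1.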

How the data were processed

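The authors deposited, for each library, raw read counts per gene and FPKM (scaled by gene length and library size) for 59362 rows; the submitters' processing notes list fastp 0.20.1, STAR 2.7.7a and featureCounts 2.0.0. The labels name no annotation release or strand setting, so overlapping and antisense genes are uncertain. Rows without a symbol (627 rows, 0.358% to 0.410% of counts) were left out. Symbols were placed by GENCODE 29, which held 99.98% of them. The counts of sgL1 1-3 and sgCtrl were tested with edgeR 4.0.16 in R 4.3.3 (filterByExpr, TMM, quasi-likelihood with robust estimation; Benjamini-Hochberg adjusted p under 0.05) over 14812 genes; UFL1, one of them, was given no test and left out of the calls, since it chose the libraries. CPM are counts scaled to library totals with TMM factors; 3 counts correspond to 0.176 to 0.195 CPM unscaled. Counting error and the spread of 3 libraries a group limit the precision. Libraries of a group were no duplicates: their counts differed by a chi-square of 2.30 to 4.27 per gene. GC content came from GENCODE transcripts, and GC offsets used 20 bins. Same-numbered libraries did not deviate together (r of -0.01, -0.11 and -0.03), so the numbers were not taken as pairs.

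The genes and lists were chosen with earlier results of these data known. Named are the UFMylation genes; the 15 largest rises and falls that were protein-coding, called, at a mean of at least 1 CPM and without overlap between groups; the 12 largest each way that were also near sgCtrl in sgL1 4-6; genes on opposite sides of sgCtrl; up to 4 called members per list with the smallest adjusted p; and genes tested within 3 Mb of UFL1. BIRC3, LIFR, WWC1, INHBB, COL12A1, HIF1A, ARNT, VHL, the markers and the falls listed among prostaglandin, sphingolipid and coagulation genes were named after their values were seen. A few genes that these rules name are not reported here. Alternatives were other scalings, filters, thresholds and tests (DESeq2 1.42.0, limma 3.58.1 with voom or on log2 FPKM), a fit of all 9 libraries, a replicate block, each library left out and GC offsets.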

Additional observations from a re-analysis of the deposited data

Results flagged for a closer look

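In 6 genes every library of sgL1 1-3 lay on one side of all sgCtrl libraries and every library of sgL1 4-6 on the other, and the gene was called for sgL1 1-3. The difference between the 2 sgL1 sets was not tested. All 6 changes were small, and each call was lost with at least 1 of the 6 libraries left out; 5 were also lost with GC offsets.

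DVL1, a transducer of Wnt signals, measured 145.5, 162.2 and 154.1 CPM in sgL1 1-3, 131.3 to 142.5 CPM in sgCtrl and 120.8, 128.0 and 126.2 CPM in sgL1 4-6, a log2 difference of 0.30 between the sgL1 sets. SPINT2, an inhibitor of serine proteases, measured 251.4, 264.7 and 245.3 CPM, 218.8 to 232.8 CPM and 212.7, 208.9 and 211.7 CPM in the same order (0.27), and kept its call with GC offsets (edgeR adjusted p = 0.0450). FADS2, a fatty acid desaturase, differed by 0.21 and KRT19, a simple-epithelium keratin, by 0.24. These 4 genes were higher in sgL1 1-3 than in sgCtrl and lower in sgL1 4-6.

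FASTKD2, a mitochondrial RNA-binding protein, measured 51.9, 46.6 and 52.4 CPM in sgL1 1-3, 56.9 to 60.8 CPM in sgCtrl and 67.1, 60.9 and 62.7 CPM in sgL1 4-6 (-0.34). FANCM, a DNA repair translocase, measured 29.8, 30.6 and 33.6 CPM, 35.8 to 37.3 CPM and 43.0, 38.7 and 39.3 CPM (-0.37). Both were lower in sgL1 1-3 and higher in sgL1 4-6.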

How the results depend on the processing

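The counts of genes higher and lower were 1194 and 1052. They were 1211 and 1050 with RLE scaling, 858 and 714 with DESeq2, 1217 and 1070 with voom, and 1005 and 845 with the replicate block. Fewer were called in a test against a 1.5-fold change (56 and 5), at adjusted p under 0.01 (733 and 577), and by limma on FPKM values, with a pseudocount of 1 (432 and 301), of 0.1 (455 and 328), or of 1 and a mean FPKM of at least 1 (671 and 567); for the FPKM fits the cause was not tested. With 1 library left out the ranges were 798 to 1219 higher and 667 to 1199 lower, and 234 to 597 and 235 to 681 for genes that moved in sgL1 1-3 and were near sgCtrl in sgL1 4-6. The latter were 221 and 205 at adjusted p under 0.01 and 198 and 177 with GC offsets. Of the 233 named genes tested, 208 kept their side of the threshold with DESeq2 and 200 with GC offsets.

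The log2 fold changes that changed sign belong to genes that were not called. ODR4 was 0.09 with GC offsets, and CDK5RAP3 with voom and ODR4 with upper-quartile scaling and with all 9 libraries were 0.00. With 1 library left out GPR63 ranged from -0.56 to 0.01, AL513550.1 from -0.44 to 0.02, UFSP1 from -0.11 to 0.58, UFSP2 from -0.01 to 0.07, CDK5RAP3 from -0.15 to 0.10 and ODR4 from -0.07 to 0.08. The chromosome 6 median was -0.074, -0.076 with library-size or RLE scaling, -0.074 over genes of at least 10 CPM and -0.051 with GC offsets.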

Other observations

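Genes of growth factor signalling went both ways in sgL1 1-3. Of 12 EGFR ligands, receptors and regulators 3 rose and 2 fell. ERRFI1, an inhibitor of EGFR, measured 641.6, 618.4 and 643.2 CPM in sgCtrl and 1245, 1170 and 1209 CPM in sgL1 1-3 (log2 fold change 0.93; edgeR adjusted p = 2.72e-19). The ligand HBEGF rose by 0.30, whereas the ligand AREG (-0.57) and EGFR itself (-0.18) fell. Feedback genes of the MAPK pathway were higher in 7 of 17 cases and lower in 0, among them SPRED1 (0.38), PHLDA1 (0.27) and the phosphatase DUSP6 (0.23); with GC offsets 8 were higher and 1 lower. Of 14 plasminogen and coagulation genes 5 rose and 3 fell (F3, F2R and ANXA2), with a median of 0.07: the plasmin inhibitor TFPI2 measured 100.3, 100.5 and 99.4 CPM in sgCtrl and 219.8, 236.9 and 226.1 CPM in sgL1 1-3 (1.18), the urokinase receptor PLAUR rose by 0.67, and of 12 integrins 5 rose and 0 fell, led by ITGA5 (0.54) and ITGA1 (0.79).

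Of 17 genes of prostaglandin and sphingolipid signalling 6 rose and 4 fell (SPNS2, PTGER4, PTGES3 and ABCC4), with a median of 0.07; 2 fell without sgCtrl 2 or without sgL1 3. PTGES, which makes prostaglandin E2 from the product of PTGS2, measured 61.9, 57.1 and 63.4 CPM in sgCtrl, 100.7, 107.0 and 101.3 CPM in sgL1 1-3 and 83.6, 88.8 and 87.4 CPM in sgL1 4-6 (0.76 for sgL1 1-3; edgeR adjusted p = 4.28e-12). SPHK1, a sphingosine kinase, rose by 0.62 and the receptor S1PR3 by 0.47. Of 28 genes of cholesterol synthesis and uptake 6 rose and 1 fell, with 2 higher without sgCtrl 2 and 0 lower without sgCtrl 1. Of 23 axon guidance genes 8 rose and 4 fell, among them SEMA4B (0.58) and the netrin NTN4 (-0.66), and the rises numbered 4 without sgCtrl 1 and 5 without sgCtrl 3, sgL1 2 or sgL1 3. The death ligand TNFSF15 measured 8.48, 9.75 and 9.21 CPM in sgL1 1-3, 3.19 to 4.8 CPM in sgCtrl and 4.89 to 6.61 CPM in sgL1 4-6 (1.15 for sgL1 1-3; edgeR adjusted p = 5.47e-06).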
